A study of Mus musculus with 10 samples.

Results

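DNA replication in bone marrow-derived macrophages (BMDMs) was followed through 45 genes that license replication origins, unwind and copy the DNA at the fork, supply deoxynucleotides (dNTPs) or pack the new DNA into chromatin. The genes were chosen by name for these roles, with earlier results of these data known. Some subunits of the same complexes are not among them. Each was read from the array feature (a set of probes reported as 1 value) that maps to its symbol alone, and from the feature with the highest mean over the 10 arrays where a gene had several. All 45 genes had such a feature, out of 16883 genes with a feature of their own, and all 45 passed the filter on low values. RNA of 5 WT and 5 Rac2-/- BMDM samples was measured on Affymetrix whole-transcript arrays for the mouse, numbered 1 to 5 in each group. Rac2 is a small GTPase made mainly in blood cells. Both groups came from male mice of the C57BL strain, and the methods name normal littermates as the controls. The Rac2-/- animals lacked the gene from birth and in every cell, so marrow precursors lacked it before the culture began. Cells of both genotypes grew in RPMI medium with 20% fetal bovine serum and were kept on MCSF, the growth factor of macrophages, at 50 ng/ml for 7 days. They stayed at 16% oxygen through 8 days without any other treatment, and at least 80% were positive for Mac1. The sources do not say if every array had a mouse of its own, so p-values stand for array to array spread, which can be technical in part.

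Replication starts in 2 steps. In G1 phase the origin recognition complex, Cdc6 and Cdt1 load the MCM2-7 ring onto DNA, and in S phase the Dbf4-dependent kinase and cyclin E-Cdk2 turn the ring into a helicase by adding Cdc45 and the GINS complex. Polymerase alpha-primase then lays primers, polymerases epsilon and delta extend them on the PCNA clamp, and Fen1 and Lig1 join the lagging strand pieces. Most of these genes are textbook targets of E2F factors and are transcribed in late G1 and S phase. MCSF drives marrow precursors of macrophages to divide, and maturing macrophages leave the cycle. In RNA of a whole culture, fewer cells in S phase and less replication RNA per cell cannot be told apart.

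The genotype was checked first. Rac2 had log2 values of 11.81, 11.82, 12.26, 12.19 and 12.42 in WT arrays 1 to 5 and of 6.90, 6.80, 7.04, 7.54 and 7.20 in Rac2-/- arrays 1 to 5. All Rac2-/- arrays lay far below all WT arrays, and the mean was lower (log2 difference -5.003, SE 0.17, limma adjusted p = 7.7e-07). The 10 macrophage markers kept by the filter had a mean log2 level of 11.75 to 11.92 in WT arrays and of 11.87 to 11.98 in Rac2-/- arrays. Arrays 1 and 2 differed from arrays 3 to 5 in both genotypes: over all features, arrays correlated at 0.974 to 0.996 within these sets and at 0.934 to 0.955 between them. Rac2-/- array 5 stood apart from the other 9 arrays in the replication genes, so genotype differences are given with all arrays and, where leaving it out moved them, without it.

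None of the 45 replication genes differed between genotypes past the adjusted threshold of 0.05, but 33 of them had a higher mean in Rac2-/- BMDMs. Their median log2 difference, Rac2-/- minus WT throughout, was 0.17, against -0.00034 over all features, of which 49.9% were higher. This excess rested on Rac2-/- array 5. Without that array 21 genes were higher and 24 lower, and the median was -0.02. The gene of the dNTP salvage enzyme Tk1 was above WT in every Rac2-/- array, with or without array 5, as were 2.18% of all features with it and 2.95% without it.

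In limma over all 10 arrays, 0 of the 45 genes were called in either direction, where 0.795% of the features were called higher and 1.11% lower in Rac2-/- arrays. At an unadjusted p under 0.05 there were 2 genes, Tk1 with an unadjusted limma p of 0.019 and Rrm1 with one of 0.047, both higher. Of all features kept by the filter, 2800 had an unadjusted limma p under 0.05. Without Rac2-/- array 5, limma again called 0 genes, where 215 features (0.795%) were called higher and 260 (0.962%) lower. In that fit 9 genes had an unadjusted p under 0.05, and 2622 of all features kept did. Of the 9 genes, Tk1 and Rrm1 were higher. Cdt1, Mcm2, Mcm10, Gins1, Prim1, Pcna and Chaf1b were lower. Same-numbered arrays deviated together from their group means, with correlations of 0.493 to 0.716. Other numbers of the same array set did so alike, at 0.476 to 0.724, so a pairing by number cannot be told apart from the array sets. With the number as a block, 3.32% of the features were called higher and 3.03% lower. That fit called 1 of the 45 genes, the clamp loader subunit Rfc2, which was lower. Trended and robust variances, array weights, 2 other scalings and all deposited features without a filter also gave 0 calls among the 45.

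Leaving out Rac2-/- array 5 lowered the difference of 43 of the 45 genes and turned 12 from higher to lower. No gene turned the other way. Differences then ran from -0.67 for Gins1 to 0.45 for Tk1, and 28 genes lay within 0.2 log2 units of WT in either direction. With the number as a block and array 5 left out, a fit chosen after the data were seen, 2.22% of the features were called higher and 1.92% lower. It called 5 of the 45 genes, all lower in Rac2-/- arrays: Gins1 (limma adjusted p = 0.019), Chaf1b (0.026), Mcm6 (0.031), Rfc2 (0.046) and Prim1 (0.047). It called 0 genes higher, with Rrm1 (0.079) and Tk1 (0.085) nearest to the threshold. Without the block these 5 genes were not called, at limma adjusted p-values of 0.19, 0.33, 0.87, 0.94 and 0.47. That fit left out Rac2-/- array 5 and kept WT array 5, so the 2 fits differ in more than the block.

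**Figure D1:**
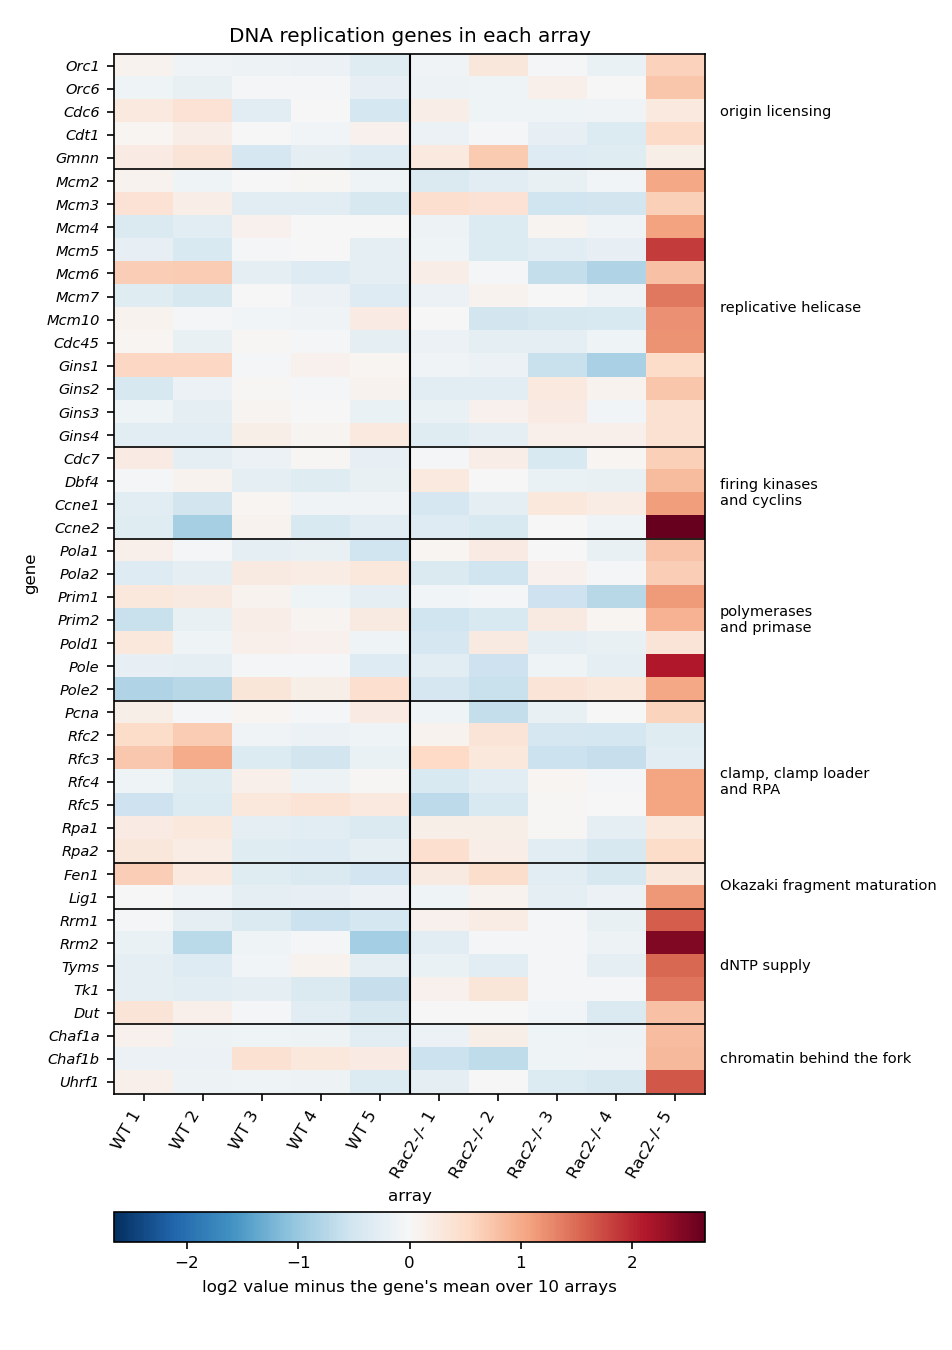
Heat map of the 45 replication genes (rows, grouped by role) in the 5 WT and 5 Rac2-/- arrays (columns). Colour gives the log2 value minus the gene's mean over the 10 arrays, red for higher and blue for lower, and the last column, Rac2-/- array 5, is the highest of its row for 39 of the 45 genes.

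**Figure D2:**
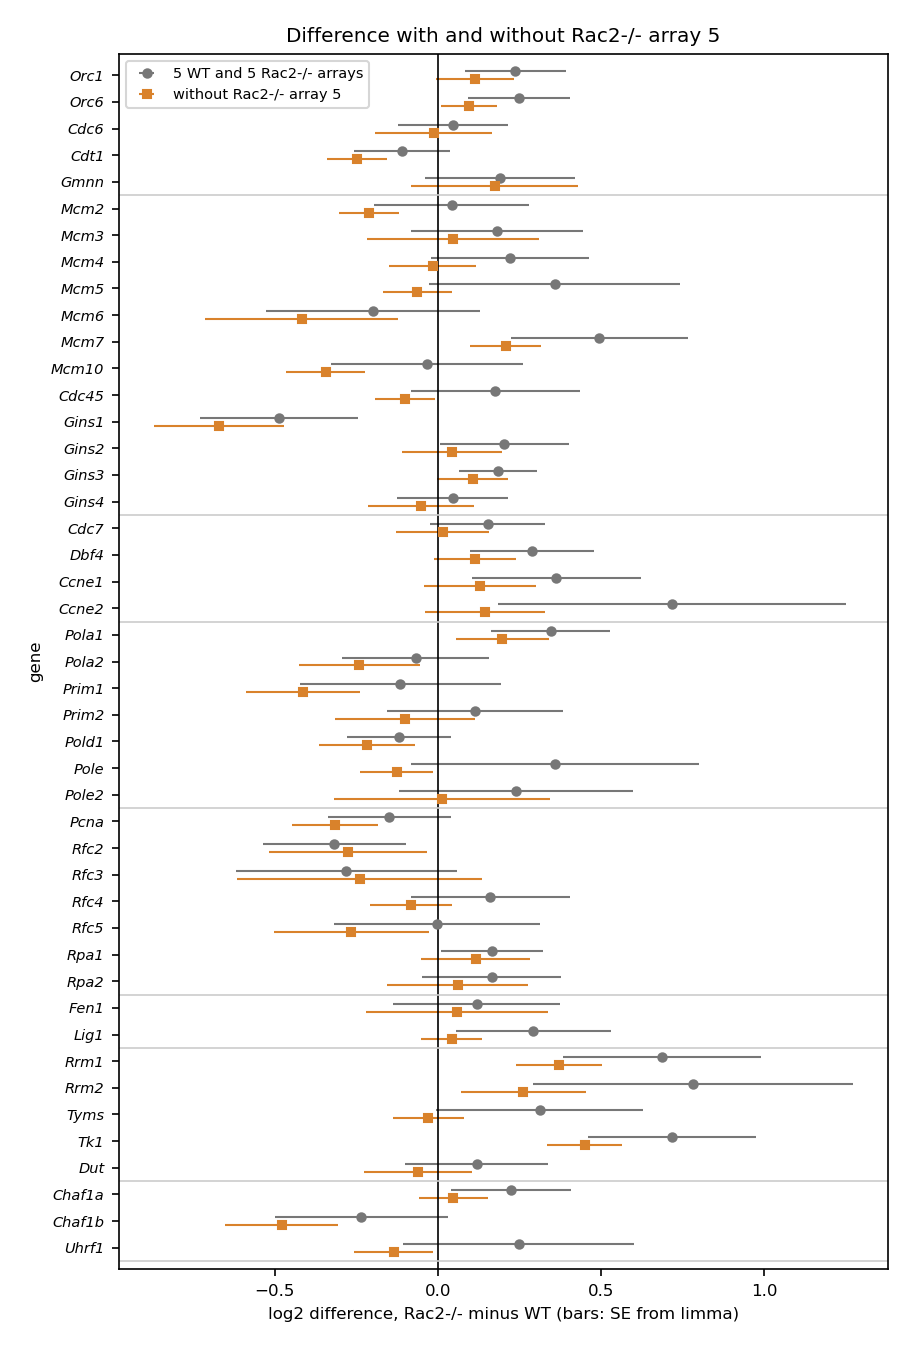
Log2 difference of each replication gene, Rac2-/- minus WT, with its SE from limma, in all 10 arrays (grey circles) and without Rac2-/- array 5 (orange squares). The squares lie to the left of the circles for 43 of the 45 genes, and 12 of them cross 0.

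Because E2F factors are the textbook regulators of these genes, the DNA just before 4 start sites is shown, for a gene with a high value in array 5 alone (Mcm5), for genes called lower once that array was left out and the numbers were blocked (Mcm6 and Prim1), and for one that was higher with and without it (Rrm1). The sequences are the 170 bases upstream of RefSeq start sites in GRCm38.p6, 5′ to 3′ on the strand of the gene, and capitals mark exact matches on either strand to the letters TTCCCGC, the letters TTGGCGC, the letters TTCGCGC or the letters TTGCCGC, 4 forms of the E2F motif, where matches may overlap each other.
Mcm5 (chr8:75109339-75109508, plus strand): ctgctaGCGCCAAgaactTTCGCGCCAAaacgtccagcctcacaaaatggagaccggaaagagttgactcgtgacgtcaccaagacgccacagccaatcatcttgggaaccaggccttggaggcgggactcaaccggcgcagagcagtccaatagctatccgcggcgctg
Mcm6 (chr1:128359706-128359875, minus strand): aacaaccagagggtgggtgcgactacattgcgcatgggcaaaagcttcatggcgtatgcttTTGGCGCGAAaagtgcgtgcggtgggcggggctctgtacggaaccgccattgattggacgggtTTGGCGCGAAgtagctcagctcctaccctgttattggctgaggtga
Prim1 (chr10:128015045-128015214, plus strand): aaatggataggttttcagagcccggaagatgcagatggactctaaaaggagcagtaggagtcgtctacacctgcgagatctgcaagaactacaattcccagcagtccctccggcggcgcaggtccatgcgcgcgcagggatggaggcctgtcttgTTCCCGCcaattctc
Rrm1 (chr7:102441525-102441694, plus strand): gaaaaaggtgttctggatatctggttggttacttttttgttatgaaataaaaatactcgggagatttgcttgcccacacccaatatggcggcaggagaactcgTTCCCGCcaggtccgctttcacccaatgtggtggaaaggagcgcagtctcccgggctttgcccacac

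Matches stood in all 4 windows: 3 in Mcm5, 4 in Mcm6 as overlapping matches on opposite strands, and 1 each in Prim1 and Rrm1. The reference table held a promoter, 250 bases before to 50 after the start, for 36 of the 45 genes. An E2F match stood in at least 1 promoter of 23 of these 36 genes (63.9%), against 10.9% of the 27025 genes in the table, and in 64.3% of the members' promoters against 9.57% of all promoters of that length. Tk1, which was above WT in every Rac2-/- array and is not among the 4 windows, was 1 of the 13 genes without a match. CCAAT, the NF-Y motif, which may overlap an E2F match, stood in a promoter of 20 of the 36 genes (55.6%), against 41.1% of genes. The genes with an E2F match lay a median of 0.95 log2 units higher in Rac2-/- array 5 than in the mean of Rac2-/- arrays 3 and 4 (23 genes), and those without one 1.02 (13 genes). A match is a run of letters and not a measured binding site.

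The origin licensing genes showed small differences, and 4 of the 5 had a higher mean in Rac2-/- BMDMs. Orc6, a subunit of the origin recognition complex, read 7.66, 7.58, 7.74, 7.74 and 7.58 in WT arrays 1 to 5 and 7.65, 7.68, 7.92, 7.77 and 8.52 in Rac2-/- arrays 1 to 5. Rac2-/- arrays 3, 4 and 5 exceeded all WT arrays, array 5 by the most, the groups overlapped, and the difference of 0.25 (SE 0.16) had a limma adjusted p of 0.756 and was 0.095 without array 5. Orc1, a subunit that binds ATP, differed by 0.24 (SE 0.15) and by 0.11 without array 5. Cdc6, a loader of the MCM ring, was at 5.98 ± 0.36 in WT and 6.03 ± 0.18 in Rac2-/- (SD, n = 5), with a difference of 0.05 that became -0.01 without array 5. Cdt1, its partner in loading, was the one licensing gene with a lower mean, at -0.11 (SE 0.15), and at -0.25 (SE 0.09, limma adjusted p = 0.36) without array 5. Gmnn, which encodes the Cdt1 inhibitor geminin, differed by 0.19 (SE 0.23) and was higher in arrays 1 and 2 than in arrays 3 to 5 in both genotypes.

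The replicative helicase genes did not move as one. Of 12 genes, 9 had a higher mean with all arrays and 4 without Rac2-/- array 5. Mcm7, a subunit of the ring, read 7.51, 7.40, 7.83, 7.68 and 7.49 in WT arrays and 7.67, 7.92, 7.82, 7.75 and 9.23 in Rac2-/- arrays 1 to 5. Array 5 was far above the rest, Rac2-/- arrays 1, 3 and 4 lay within the WT range, and the difference was 0.49 (SE 0.27, limma adjusted p = 0.657). Without array 5 it was 0.21 (SE 0.11, limma adjusted p = 0.648). Gins1, a GINS subunit, had the lowest difference of the 45 genes, reading 6.92, 6.92, 6.32, 6.49 and 6.43 in WT and 6.28, 6.21, 5.78, 5.51 and 6.87 in Rac2-/- arrays 1 to 5. Its 4 other Rac2-/- arrays lay below all WT arrays, while array 5 lay within the WT range. The difference of -0.49 (SE 0.24, limma adjusted p = 0.572) became -0.67 (SE 0.20, limma adjusted p = 0.192) without array 5.

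Gins1 was thus the only gene of the 45 that lay wholly below WT once Rac2-/- array 5 was left out, where 2.79% of the features did, and Tk1 the only one wholly above, where 2.95% did. With all 10 arrays only Tk1 did not overlap, above WT, where 2.18% of the features lay wholly above, and 0 genes lay wholly below, where 2.34% of the features did. The other GINS genes went with neither. Gins2, Gins3 and Gins4 differed by 0.20, 0.18 and 0.04 with all arrays and by 0.04, 0.11 and -0.05 without array 5.

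Among the other helicase genes, Mcm6 and Mcm5 had different patterns, and both are given in full after their values were seen. Mcm6 read 8.87, 8.89, 7.98, 7.87 and 7.98 in WT arrays and 8.40, 8.20, 7.59, 7.43 and 9.00 in Rac2-/- arrays 1 to 5. Rac2-/- arrays 1 to 4 were each below the WT arrays of their own set, array 5 was the highest of all 10, and arrays 1 and 2 were higher than arrays 3 and 4 in both genotypes. The difference was -0.20 (SE 0.33) with all arrays and -0.42 (SE 0.30) without array 5. Mcm5 read 7.72, 7.52, 7.90, 7.92 and 7.69 in WT and 7.82, 7.56, 7.65, 7.71 and 9.79 in Rac2-/- arrays 1 to 5. Its first 4 Rac2-/- arrays lay within the WT range, and the difference went from 0.36 (SE 0.38) to -0.06 (SE 0.11) without array 5. Mcm2, Mcm3 and Mcm4, the remaining ring subunits, differed by 0.04, 0.18 and 0.22 with array 5 and by -0.21, 0.05 and -0.02 without it. Mcm10, which joins polymerase alpha to the helicase, went from -0.03 to -0.34 (SE 0.12, limma adjusted p = 0.309), and Cdc45, the helicase cofactor, from 0.17 to -0.10.

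All 4 genes of the firing kinases and cyclins had a higher mean in Rac2-/- BMDMs, with and without array 5, and none passed the test. Ccne2, one of the cyclin E genes, read 5.65, 5.08, 6.06, 5.56 and 5.68 in WT and 5.62, 5.56, 5.98, 5.85 and 8.62 in Rac2-/- arrays 1 to 5. Only array 5 left the WT range. The difference of 0.72 (SE 0.53, limma adjusted p = 0.849) was 0.14 (SE 0.18) without it. Dbf4, which activates the Cdc7 kinase, read 8.19, 8.32, 7.97, 7.91 and 8.04 in WT and 8.48, 8.22, 8.06, 8.04 and 9.07 in Rac2-/- arrays 1 to 5. Rac2-/- arrays 1 and 5 lay above all WT arrays and the other 3 among them, with a difference of 0.29 (SE 0.19, limma adjusted p = 0.788) that was 0.11 without array 5. Ccne1, the other cyclin E gene, differed by 0.36 (SE 0.26) and by 0.13 without array 5, and Cdc7 by 0.15 (SE 0.18) and by 0.01.

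The polymerase and primase genes were split, with 4 of 7 higher in Rac2-/- with all arrays and 2 of 7 without array 5. Pole, the catalytic subunit of polymerase epsilon, read 5.63, 5.60, 5.80, 5.81 and 5.50 in WT and 5.54, 5.29, 5.73, 5.61 and 7.97 in Rac2-/- arrays 1 to 5. Array 5 alone was high and the others were among or below WT. The difference went from 0.36 (SE 0.44, limma adjusted p = 0.983) to -0.13 (SE 0.11). Pola1, the catalytic subunit of polymerase alpha, read 6.93, 6.75, 6.56, 6.60 and 6.25 in WT and 6.84, 7.01, 6.81, 6.60 and 7.55 in Rac2-/- arrays 1 to 5. Arrays 2 and 5 of Rac2-/- exceeded all WT arrays and the groups overlapped, at 0.35 (SE 0.18, limma adjusted p = 0.627) with array 5 and 0.20 (SE 0.14) without it. Prim1, the catalytic primase subunit and given in full after its values were seen, read 7.01, 6.97, 6.83, 6.62 and 6.50 in WT and 6.65, 6.67, 6.19, 5.99 and 7.87 in Rac2-/- arrays 1 to 5. Rac2-/- arrays 3 and 4 were lower than all other arrays and array 5 was higher than all others, so that the difference was -0.11 (SE 0.31) with array 5 and -0.41 (SE 0.17, limma adjusted p = 0.468) without it. The accessory subunits Pola2, Prim2 and Pole2 differed by -0.07, 0.11 and 0.24 with array 5 and by -0.24, -0.10 and 0.01 without it. Pold1, the catalytic subunit of polymerase delta, differed by -0.12 and -0.22.

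Genes of the clamp, its loader and the single-strand binding protein RPA leaned lower only without array 5. With all arrays 3 of 7 were higher in Rac2-/-, at a median difference of -0.0021. Without array 5, 2 of 7 were higher and the median was -0.24. Pcna, the sliding clamp, read 11.85, 11.64, 11.74, 11.66 and 11.91 in WT and 11.56, 11.05, 11.49, 11.67 and 12.28 in Rac2-/- arrays 1 to 5. Array 5 was the highest of all, Rac2-/- array 4 lay within the WT range, and the other 3 were below it. The difference was -0.15 (SE 0.19, limma adjusted p = 0.987) and became -0.32 (SE 0.13, limma adjusted p = 0.456) without array 5, and a further feature that maps to Pcna gave -0.19 and -0.29. Rfc2, a subunit of the loader, read 9.50, 9.70, 8.92, 8.86 and 8.89 in WT and 9.10, 9.37, 8.57, 8.56 and 8.69 in Rac2-/- arrays 1 to 5. Each Rac2-/- array was below its same-numbered WT array and below all WT arrays of its own set, array 5 included, although the groups overlapped across sets. The difference of -0.32 had an SE of 0.22 and a limma adjusted p of 0.809 without a block, and an SE of 0.06 and a limma adjusted p of 0.028 with the replicate number as a block. A term for the array sets, chosen with earlier results of these data known, gave a limma adjusted p of 0.020 for the same difference. Rfc3, a related loader subunit, differed by -0.28 (SE 0.34, limma adjusted p with the block 0.166), and by -0.24 without array 5. Rfc4 and Rfc5 differed by 0.16 and -0.0021 with array 5 and by -0.08 and -0.27 without it. Rpa1 and Rpa2, subunits of RPA, differed by 0.17 and 0.16 with array 5 and by 0.12 and 0.06 without it.

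Both genes of Okazaki fragment maturation had slightly higher means in Rac2-/- BMDMs. Lig1, the ligase of the lagging strand, read 7.06, 6.96, 6.83, 6.84 and 6.90 in WT and 6.95, 7.15, 6.82, 6.91 and 8.21 in Rac2-/- arrays 1 to 5. Array 5 stood more than a log2 unit over every other array, and the difference of 0.29 (SE 0.24, limma adjusted p = 0.885) was 0.04 (SE 0.09) without it. Fen1, the flap nuclease, differed by 0.12 (SE 0.26) and by 0.06 without array 5, and arrays 1 and 2 were higher than arrays 3 and 4 by 0.71 log2 units in Rac2-/-.

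The genes of dNTP supply had the largest median difference of the role groups, 0.69, and all 5 had a higher mean in Rac2-/- BMDMs. Without array 5 the median was 0.26 and 3 of the 5 were higher. Tk1, which salvages thymidine, read 7.06, 7.00, 7.07, 6.92 and 6.69 in WT and 7.43, 7.64, 7.26, 7.26 and 8.73 in Rac2-/- arrays 1 to 5. Every Rac2-/- array was above every WT array. The difference was 0.72 (SE 0.26, 1.64-fold, limma adjusted p = 0.289) and without array 5 it was 0.45 (SE 0.12, 1.37-fold, limma adjusted p = 0.117), so neither fit called it. A second feature that maps to Tk1 gave 0.91 (SE 0.30, limma adjusted p = 0.235) and 0.62 without array 5.

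Ribonucleotide reductase, which makes deoxynucleotides from ribonucleotides, has a large subunit encoded by Rrm1 and an S phase small subunit encoded by Rrm2. Rrm1, given in full after its values were seen, read 9.16, 8.93, 8.80, 8.61 and 8.72 in WT and 9.31, 9.39, 9.16, 9.00 and 10.80 in Rac2-/- arrays 1 to 5. Only WT array 1 reached into the Rac2-/- range, and each Rac2-/- array exceeded all WT arrays of its own set. Its difference was 0.69 (SE 0.30, limma adjusted p = 0.466), and 0.37 (SE 0.13, limma adjusted p = 0.31) without array 5. Rrm2 read 6.93, 6.38, 6.99, 7.08 and 6.20 in WT and 6.82, 7.06, 7.05, 6.98 and 9.57 in Rac2-/- arrays 1 to 5. WT arrays 2 and 5 were low and Rac2-/- array 5 was high, and the first 4 Rac2-/- arrays lay within the WT range. The difference, the highest of the 45 genes, was 0.78 (SE 0.49, limma adjusted p = 0.755), and 0.26 (SE 0.19) without array 5. Tyms, which makes thymidylate, and Dut, which removes dUTP, differed by 0.31 and 0.12 with array 5 and by -0.03 and -0.06 without it.

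The genes that act on chromatin behind the fork included one of the lower values. Uhrf1, which guides maintenance methylation to new DNA, read 6.24, 5.98, 5.999, 5.98 and 5.75 in WT and 5.85, 6.11, 5.76, 5.70 and 7.77 in Rac2-/- arrays 1 to 5. Array 5 alone exceeded WT, and the difference went from 0.25 (SE 0.36, limma adjusted p = 0.997) to -0.14 (SE 0.12). Chaf1a, the large subunit of the histone chaperone CAF-1, read 6.84, 6.59, 6.60, 6.60 and 6.44 in WT and 6.57, 6.88, 6.61, 6.60 and 7.55 in Rac2-/- arrays 1 to 5. Rac2-/- arrays 2 and 5 exceeded all WT arrays and the other 3 lay within the WT range, at 0.22 (SE 0.18, limma adjusted p = 0.888) with it and 0.05 without it. Its partner Chaf1b, given in full after its values were seen, read 7.55, 7.54, 8.10, 7.99 and 7.91 in WT and 7.13, 7.03, 7.58, 7.62 and 8.56 in Rac2-/- arrays 1 to 5. Rac2-/- arrays 1 to 4 were each below all WT arrays of their own set, and array 5 was the highest of all 10. The difference of -0.23 (SE 0.27) became -0.48 (SE 0.17, limma adjusted p = 0.332) without array 5.

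**Figure D3:**
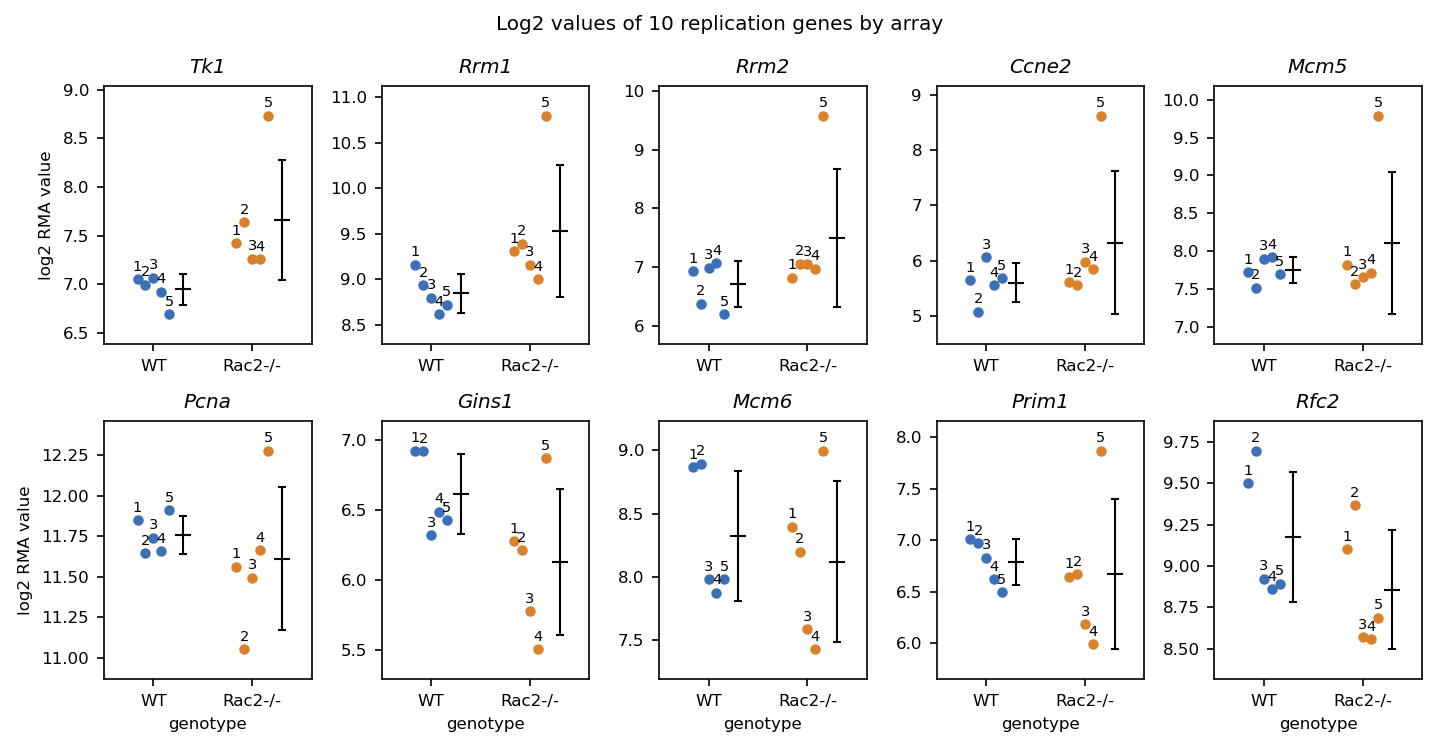
Log2 values of 10 replication genes in each array (points, with the array number), with the group mean and SD (n = 5) beside them, on a scale of its own for each gene. Tk1 lies wholly above WT in Rac2-/-, as do 2.18% of all features. Once Rac2-/- array 5 is left out, Gins1 (-0.67) lies wholly below WT, as do 2.79% of all features. Limma without a block called neither gene. Array 5 is the top point of Rac2-/- in 9 of the panels and Rfc2 is the exception.

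Rac2-/- array 5 had higher values than any other array for most of the 45 replication genes. It had the highest value of the 10 arrays for 39 of the 45 genes (86.7%), against 11.0% of all features, and it lay above the mean of Rac2-/- arrays 3 and 4, the other arrays of its genotype and set, for 45 of 45. The median excess over these arrays was 0.96 log2 units, against -0.01 over all features. This is 1 array against 2 others, so no test was made of it. The 45 genes were chosen with earlier results of these data known, so these shares are a description. Of 29 other replication subunits, array 5 was the highest of the 10 arrays for 15 (51.7%). It lay above the mean of Rac2-/- arrays 3 and 4 for 21 of them, at a median excess of 0.22. The mean of the 45 genes, each taken relative to its own mean over the 10 arrays, was 0.91 in this array and between -0.20 and 0.01 in the other 9.

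The excess differed between the role groups. It was largest for dNTP supply (median 1.65 log2 units), followed by the helicase (1.19), Okazaki fragment maturation (1.00), chromatin (0.96), firing kinases and cyclins (0.95), polymerases and primase (0.77), clamp, loader and RPA (0.70) and licensing (0.68). The largest single excesses were those of Ccne2 (2.71 log2 units, 6.52-fold), Rrm2 (2.56, 5.88-fold), Pole (2.30, 4.92-fold), Mcm5 (2.10, 4.30-fold) and Uhrf1 (2.04, 4.10-fold). Rfc2 (0.12), Gins4 (0.27) and Rfc3 (0.29) had the smallest. The licensing factors Cdc6 (0.37) and Gmnn (0.48) and the genes Gins1, Rfc2, Rfc3 and Fen1 were those that another array exceeded.

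Complexes differed in how their subunits shared the excess. All 6 subunits of the MCM ring had it, from 1.07 for Mcm4 to 2.10 for Mcm5. So did the 4 subunits of polymerase alpha-primase, from 0.62 for Pola2 to 1.78 for Prim1. Both CAF-1 subunits that were read, not the whole complex, had it too, Chaf1a at 0.95 and Chaf1b at 0.96. The GINS subunits ran from 0.27 for Gins4 to 1.23 for Gins1. Other complexes held subunits with and without it. Polymerase epsilon combined Pole at 2.30 and Pole2 at 0.72 with its histone-fold subunits Pole3 at 0.07 and Pole4 at -0.05, which are not among the 45. In the origin recognition complex, Orc1 (0.73) and Orc6 (0.68) stood beside Orc2 (0.17), Orc3 (0.0082), Orc4 (0.01) and Orc5 (-0.14). Rrm2b, the small subunit of ribonucleotide reductase that is made outside S phase, was at -0.03 beside Rrm1 at 1.72 and Rrm2 at 2.56. Other complexes were less cleanly split. In polymerase delta, Pold2 (0.64), not among the 45, exceeded Pold1 (0.55), while Pold3 was at 0.22 and Pold4 at -0.42. In RPA, Rpa3 (0.48), also not among them, lay between Rpa1 (0.38) and Rpa2 (0.85). The loader subunits among the 45 ran from 0.12 for Rfc2 to 1.04 for Rfc4, beside Rfc1 at -0.0021. Over 10 complexes the 29 subunits among the 45 genes had a median excess of 0.95 (range 0.12 to 2.56). The 12 other subunits that were read had one of 0.0095 (range -0.42 to 0.64). The 45 genes were chosen with earlier results of these data known, so these medians are a description.

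**Figure D4:**
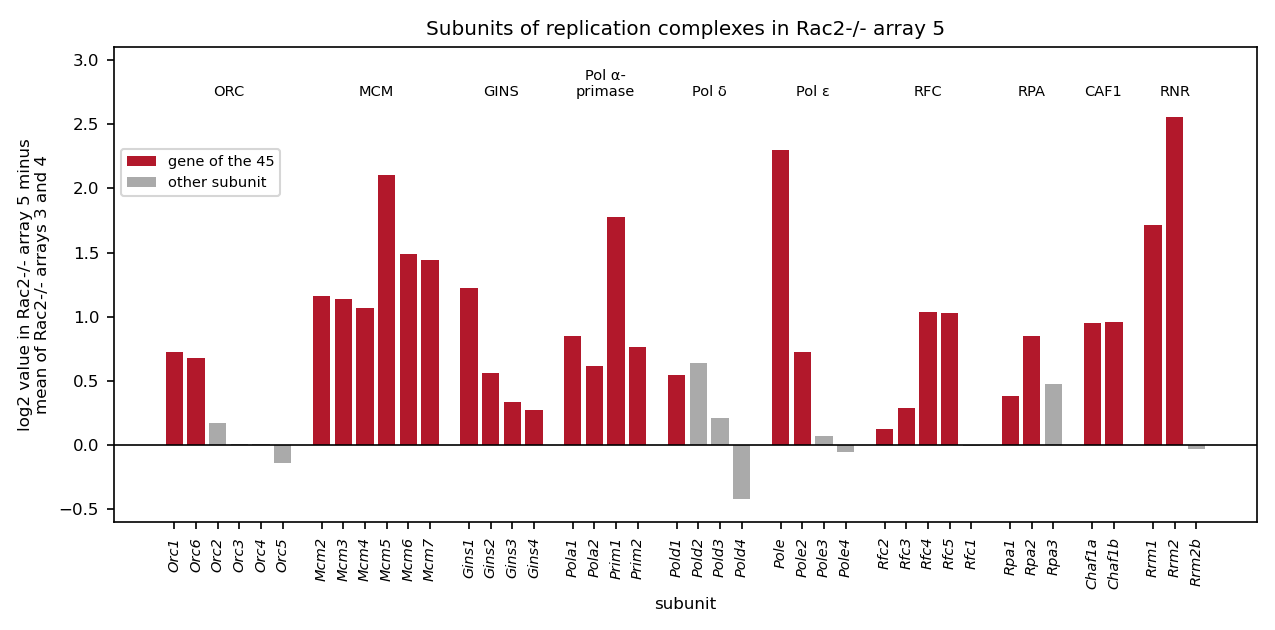
Log2 value in Rac2-/- array 5 minus the mean of Rac2-/- arrays 3 and 4 for subunits of 10 replication complexes (bars, 1 array against the mean of 2, without an error bar). Red bars are the 29 subunits among the 45 replication genes, with a median of 0.95. Grey bars are the 12 other subunits that were read, with a median of 0.0095. RNR is ribonucleotide reductase.

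Genes of mitosis stood out in the same array. Mki67, the proliferation marker Ki-67, read 6.45, 5.85, 7.45, 7.42 and 6.90 in WT and 7.38, 6.85, 7.82, 7.55 and 10.51 in Rac2-/- arrays 1 to 5, with array 5 far above all others. All 17 mitosis genes kept by the filter had their highest value there, at a median excess of 2.35 log2 units over Rac2-/- arrays 3 and 4, and 0 of the 17 were called by limma between genotypes (0 also at an unadjusted p under 0.05). Their median difference was 0.62, and 0.13 without array 5, where 14 were higher and 3 lower. With the block and array 5 left out, Cdk1 was called higher (limma adjusted p = 0.047) and Tpx2 lower (0.046). That fit called 2.22% of the features higher and 1.92% lower. Tpx2 lay below all WT arrays once array 5 was left out (-0.71, limma adjusted p = 0.055 without the block), where 2.79% of the features did. Bub1b, a spindle checkpoint kinase, differed by 0.82 (limma adjusted p = 0.563) and by 0.39 without array 5.

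The mean levels of the macrophage, progenitor and neutrophil marker lists in Rac2-/- array 5 lay within the range of the other 9 arrays, while single markers did not. The macrophage markers, relative to their own means over the 10 arrays, were at 0.07 in it and at -0.12 to 0.11 in the others. Of the 10, Cx3cr1, the fractalkine receptor, had its highest value in array 5, at 10.84 against 7.62 to 9.62 in the others. Fcgr1, a high-affinity receptor for IgG, had its lowest there, at 10.87 against 11.64 to 12.65. The other 8, Csf1r and Adgre1 among them, lay within the range of the other arrays. The 12 progenitor markers had a mean log2 level of 6.49 in array 5, 5.96 to 6.76 in WT arrays and 5.92 to 6.31 in the other Rac2-/- arrays. Of these, Cd34, a surface marker of blood progenitors, was at 7.05 in array 5 and at 5.32 to 5.94 in the other 9, Flt3 had its lowest value there (5.57 against 5.68 to 6.25), and the other 10, Kit and Myb among them, lay within the range of the others. The 11 neutrophil markers had 7.63 in array 5 and 6.63 to 8.83 in the others. The mast cell or basophil list was at 4.93 in array 5, 5.05 to 5.53 in WT and 4.91 to 5.02 in the other Rac2-/- arrays. The 7 T or NK cell markers had their lowest level there, 5.41 against 5.59 to 5.84 in the other arrays, with Cd4 at 8.35 against 9.54 to 10.95. Of the 10 fibroblast or stroma markers kept by the filter, Thy1 (6.31 against 6.02 to 6.23) and Fn1 (8.30 against 6.61 to 8.17) had their highest value in array 5, and 0 of the neutrophil, mast cell or basophil, dendritic cell, B cell, T or NK cell and erythroid markers kept did. The part of cell makeup in the replication genes was not tested.

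**Figure D5:**
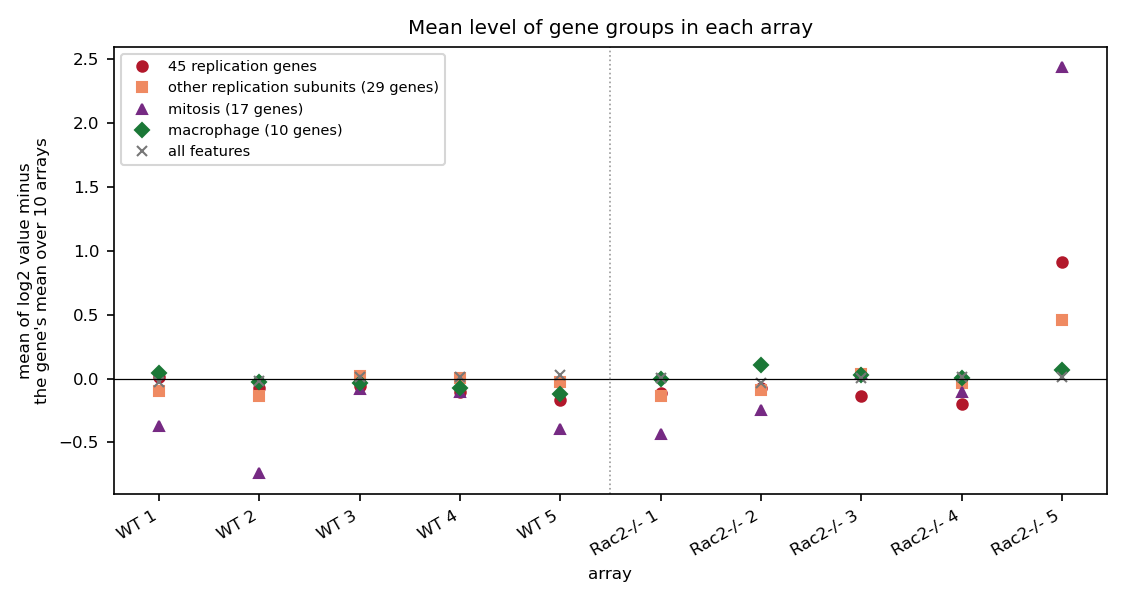
Mean over the genes of a group of the log2 value minus the gene's mean over the 10 arrays (vertical axis), for each array (horizontal axis). In Rac2-/- array 5 the 45 replication genes are at 0.91 and the mitosis genes at 2.43, while the macrophage markers are at 0.07 and all features at 0.01.

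Within the array sets, the genotype difference of the replication genes was near 0 in arrays 1 and 2 and above 0 in arrays 3 to 5. In arrays 1 and 2 the median difference over the 45 genes was -0.0061, with 22 genes higher in Rac2-/-, and in arrays 3 to 5 it was 0.28, with 38 higher. With array 5 of Rac2-/- left out, the later set gave -0.03, with 20 higher. The limma interaction of genotype and array set called 0 of the 45 genes, with 1 at an unadjusted p under 0.05 (Cdc6, with a limma p of 0.049), where 0% of the features were called and 1560 features had an unadjusted p under 0.05. With array 5 left out, 14 genes were higher in Rac2-/- in both sets, Tk1 and Rrm1 among them, and 17 were lower in both, among them Gins1, Mcm6, Prim1, Chaf1b and Rfc2. The share of all features that kept their sign in both sets was not counted. These counts are thus a description, and the genes named were picked from these same arrays.

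The array sets differed in part of the replication genes in both genotypes. WT arrays 1 and 2 were compared with WT arrays 3 to 5. Rac2-/- arrays 1 and 2 were compared with arrays 3 and 4, with Rac2-/- array 5 left out. By at least 0.5 log2 units in both genotypes, 8 of the 45 genes were higher in arrays 1 and 2 (Gmnn, Mcm3, Mcm6, Gins1, Rfc2, Rfc3, Rpa2 and Fen1) and 3 were lower (Prim2, Pole2 and Rfc5). These are 24.4% of the genes, a share near the 21.6% of all features. Rfc3 had the largest such shift upward, at 1.19 in WT and 0.99 in Rac2-/-, and Pole2 the largest downward, at -1.08 and -0.83. Loader subunits of a single complex thus moved in opposite directions between sets, Rfc2 and Rfc3 up and Rfc5 down. What sets arrays 1 and 2 apart is not given in the labels, and its part in these genes was not tested.

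Other genes of the pathway were read from lists chosen for their roles, with earlier results of these data known. Of 29 other replication subunits, limma called 0, with 1 at an unadjusted p under 0.05, and the median difference was 0.10, or 0.03 without array 5. Orc2, of the origin recognition complex, was at 7.82 ± 0.08 in WT and 8.08 ± 0.12 in Rac2-/- (SD, n = 5), with an unadjusted limma p of 0.0096 and an adjusted one of 0.199, and Donson, a helicase assembly factor, differed by 0.24 (limma adjusted p = 0.504). Of 17 E2F and RB factors, limma called 0, with 1 at an unadjusted p under 0.05, at a median of 0.14, or 0.03 without array 5. The block called 2 of them, both higher, where it called 3.32% of all features higher. Tfdp2, a dimerization partner of E2F proteins, differed by 0.68 (limma adjusted p = 0.386, and 0.049 with the block) and by 0.42 without array 5. Rb1, the retinoblastoma pocket protein, differed by 0.36 (limma adjusted p = 0.806, and 0.020 with the block) and by 0.27 without array 5 (limma adjusted p = 0.967, and 0.053 with the block).

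Rbl1, the pocket protein p107 that restrains E2F targets, read 8.89, 9.18, 8.96, 8.97 and 9.01 in WT and 8.47, 8.33, 8.45, 8.46 and 9.40 in Rac2-/- arrays 1 to 5. The first 4 Rac2-/- arrays lay below all WT arrays and array 5 above them all. It was not called with all arrays (-0.38, limma adjusted p = 0.57) and was called lower without array 5 (-0.57, limma adjusted p = 0.010), the only one of the 17 factors in that fit. That fit called 0.962% of all features lower.

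The checkpoint and nucleotide lists gave 1 call without the block and 3 with it, all lower in Rac2-/-. Of all features, 1.11% were called lower without the block and 3.03% with it. Of 15 S phase checkpoint genes, limma called 0, with 4 at an unadjusted p under 0.05. Timeless, of the fork protection complex, differed by -0.45 (limma adjusted p = 0.218, and 0.044 with the block), and Rad9a, of the checkpoint clamp, by -0.35 (limma adjusted p = 0.354). Of 12 other dNTP enzymes, Cmpk2, a mitochondrial nucleotide kinase that is also a known interferon-induced gene, was called lower in Rac2-/-. It read 11.61, 12.04, 11.82, 11.73 and 12.11 in WT and 11.00, 10.09, 10.37, 10.32 and 9.95 in Rac2-/- arrays 1 to 5, with no overlap. It fell by 1.52 on the log2 scale (SE 0.19, limma adjusted p = 0.0036), with or without array 5 (-1.42, limma adjusted p = 0.0067). Dck, which phosphorylates deoxycytidine for salvage, differed by -0.76 (limma adjusted p = 0.149) and by -0.64 without array 5. The block called it lower with all arrays (limma adjusted p = 0.013) and without array 5 (0.026). The median difference of these 12 enzymes was -0.13 with array 5 and -0.14 without it, against 0.69 and 0.26 for the dNTP supply genes among the 45.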

How the data were processed

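As deposited, the values are on a log2 scale, computed by the authors with RMA from Affymetrix mouse 1.0 ST arrays. RMA corrects background, quantile normalizes arrays and summarizes probes. Normalizing forces a common distribution, so a shift of all RNA cannot be seen. The log base was taken from the values, which ran from 1.69 to 13.7. The methods then name a filter on expression, ComBat and limma. The 34760 features here show no filter. ComBat's use on them and software versions are not given in the sources used here. Array number limits the precision.

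Groups and replicate numbers came from the sample labels, and 0 array pairs were identical. As many features as the methods' filter left were kept, ranked by their fourth-highest value (lowest 4.73). Names came from the platform annotation, with symbols updated by Entrez identifier for 21553 features. Of all features, 21640 had 1 symbol, 1321 several and 11799 none. Differences were tested with limma 3.58.1 in R 4.3.3 (lmFit, eBayes, two-sided), with Benjamini-Hochberg adjustment over the kept features at 0.05, and the fits were tested on simulated data. The main fit had no block. Same-numbered arrays' deviations from group means correlated at 0.493 to 0.716, all over 0.1, so a block by number was fitted as an alternative, from the values alone. Numbers of the same set correlated at 0.476 to 0.724, and for 5 of 10 arrays the same-numbered array was the closest. A cut of 0.1 therefore cannot tell a pairing by number from the array sets.

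The members, lists and array sets were chosen with earlier results of these data known. By rule, array values are given for the member with the largest difference and that with the smallest p in each role, Pcna, Mki67 and Rac2. From other lists the text names genes called, or otherwise the 2 smallest p-values; other genes named were chosen after their values were seen. Promoters came from RefSeq (GRCm38.p6). Alternatives were the filter, block, variance model, array weights, 2 scalings, feature averaging, array sets (as a term, with ComBat in scanpy 1.11.5, or separately) and leaving out each array.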

Additional observations from a re-analysis of the deposited data

Results flagged for a closer look

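In 13 of the 45 replication genes (28.9%), Rac2-/- array 5 lay farther above the other Rac2-/- arrays than Dixon's 95% critical value for 5 samples (0.71) allows, against 0.914% of all features, and 0 of the 45 had an outlying WT array, against 4.22% of all features. Chance flags about 1 in 20 groups. The genes share this array, so the 13 flags are not independent, and the 45 genes were chosen with earlier results of these data known.

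The helicase genes gave 5 of these flags. Mcm2 was at 8.87 in array 5 and at 7.45 to 7.77 in the other Rac2-/- arrays. Mcm5 was at 9.79, against 7.56 to 7.82 in the others. For Mcm7 the value was 9.23, against 7.67 to 7.92, and for Mcm10 it was 7.97, against 6.27 to 6.76. Cdc45 stood at 8.09, against 6.65 to 6.78.

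Among the genes of dNTP supply, Rrm1 was at 10.80 in array 5 (others 9.00 to 9.39), Rrm2 at 9.57 (6.82 to 7.06), Tyms at 8.01 (6.19 to 6.46) and Tk1 at 8.73 (7.26 to 7.64). Ccne2 was at 8.62 (5.56 to 5.98), Pole at 7.97 (5.29 to 5.73), Lig1 at 8.21 (6.82 to 7.15) and Uhrf1 at 7.77 (5.70 to 6.11). Tk1 also lay above all WT arrays without array 5, as did 2.95% of all features, and the other 12 genes overlapped WT without it.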

How the results depend on the processing

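The count of 514 called features was 1716 with the replicate block, 1811 with array weights, 2524 with a term for the array sets, 4340 with ComBat on them, 2 within arrays 1 and 2, 1487 within arrays 3 to 5, and 245 to 625 leaving out 1 array. It was below the main count by over 1.5 times without WT array 2, 3, 4 or 5 or without Rac2-/- array 2, 3 or 4. The replicate block, the term and ComBat each called 1 of the 45 genes, Rfc2, and the block changed no other call among them. Leaving out an array called 0 of the 45, and higher means numbered 21 (without Rac2-/- array 5) to 36. With the replicate block and Rac2-/- array 5 left out, a setting chosen after seeing the data, 1119 features and 5 of the 45 genes were called and 20 were higher. WT array 5 has no partner in this setting, so its differences rest on arrays 1 to 4 of each genotype. Fits of the interaction within a set or with a block were not made. The cause was not tested.

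Log2 differences that changed sign with no call were, within arrays 1 and 2, Cdc6 -0.28, Mcm2 -0.32, Cdc45 -0.12, Gins2 -0.0061, Prim2 -0.074, Pole -0.20, Rfc4 -0.12, Rpa1 -0.087, Fen1 -0.10, Dut -0.24 and Uhrf1 -0.13, and within arrays 3 to 5, Mcm6 0.058, Mcm10 0.12, Prim1 0.031, Pcna 0.043 and Rfc5 0.060. Median centring gave Rfc5 0.014. With the block and Rac2-/- array 5 left out, where WT array 5 does not count either, the sign also turned for Cdc6 (-0.12), Mcm2 (-0.23), Mcm3 (-0.039), Mcm5 (-0.077), Cdc45 (-0.15), Cdc7 (-0.022), Prim2 (-0.027), Pole (-0.17), Rfc4 (-0.054), Fen1 (-0.054), Tyms (-0.047), Dut (-0.15) and Uhrf1 (-0.19). Leaving out 1 array gave Cdc6 -0.065 to 0.15, Mcm2 -0.21 to 0.14, Mcm4 -0.017 to 0.34, Mcm5 -0.063 to 0.49, Mcm10 -0.34 to 0.084, Cdc45 -0.10 to 0.26, Gins4 -0.051 to 0.13, Pola2 -0.24 to 0.053, Prim1 -0.41 to 0.056, Prim2 -0.10 to 0.26, Pole -0.13 to 0.54, Rfc4 -0.082 to 0.28, Rfc5 -0.27 to 0.17, Tyms -0.029 to 0.43, Dut -0.062 to 0.23 and Uhrf1 -0.14 to 0.38. Apart from Rac2-/- array 5, no array turned more than 3 genes.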
